A study of Homo sapiens with 12 samples.

Results

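The chromatin of the SW620 line was described as 1 combined map of 3 active histone marks. SW620 is an established human colorectal adenocarcinoma cell line, labelled Dukes' type C, grown without treatment. Each antibody (H3K4me2, H3K4me3, H3K27ac, H3K36me3 and FOXA2) contributed 1 ChIP-seq library and 1 list of enriched regions, called against the SW620 input. The rest of the series is the same set of antibodies in SW480, labelled Dukes' type B. The map merged every H3K4me2, H3K4me3 and H3K27ac region that overlapped or touched another, which turned 73665 listed regions into 35844 merged regions covering 97.6 Mb, from 262931 regions in the 10 lists of the series. Each merged region was then given its combination of the 3 marks and its overlap, by 1 bp or more, with H3K36me3 and with FOXA2 peaks of SW620. Marks and FOXA2 were used in the rule itself, and there were no replicates, so all values are descriptions with no test. Intervals are 95% intervals (Wilson for shares, exact Poisson for peaks per Mb) that cover counting error only. The identity of the cells was taken from the labels and was not checked against marker genes.

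The marks are known for different parts of a gene and its surroundings. H3K4me3 lies at promoters, H3K4me2 at promoters and at enhancers, and H3K27ac is placed at both when they are active, by the acetyltransferases p300 and CBP. H3K36me3 is deposited by SETD2, which travels with elongating RNA polymerase, so that it covers the bodies of transcribed genes. FOXA2, of the forkhead family, acts in the foregut endoderm and the liver and is known as a pioneer factor that can bind its sites in closed chromatin.

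Library depth and the share of tags in regions differ between the lists, and a missing mark is a missing call. Total tags were 23671100 for H3K4me2, 12791745 for H3K4me3, 47867295 for H3K27ac, 46006580 for H3K36me3 and 18036456 for FOXA2. Of these, 50.7%, 52.0%, 27.5%, 35.2% and 2.25% lay in the called regions, in the same order. The H3K4me3 library was the one with the fewest tags, and every class defined by the absence of H3K4me3 rests on it. What this depth contributes to the classes was not tested.

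All 7 possible combinations were found. Regions with all 3 marks numbered 12983, which was 36.2% of the regions and 54.6% of the covered length. Regions with H3K4me2 alone were almost as many, 11746 or 32.8%, but held 16.9% of the length. H3K4me2 with H3K27ac and no H3K4me3, the pattern known for active enhancers, was found in 6466 regions (18.0%, and 19.2% of the length). H3K4me2 with H3K4me3 and no acetylation was found in 2755 regions (7.69%, and 6.38% of the length).

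The combinations without H3K4me2 were few. H3K27ac stood alone in 1809 regions, 5.05% of the map and 2.70% of its length. H3K4me3 alone was found in 58 regions and H3K4me3 with H3K27ac in 27, over 0.0612 and 0.0411 Mb. Nearly every merged region with H3K4me3 thus also held H3K4me2.

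Width followed the number of marks. The median width was 3621 bp with all 3 marks (quartiles 2871 and 4608.5 bp), 2.48 kb for H3K4me2 with H3K27ac and 2121 bp for H3K4me2 with H3K4me3. Regions with 1 mark were close to the narrowest call the caller makes, with medians of 1255 bp for H3K4me2 alone and 1001 bp for H3K27ac alone and for H3K4me3 alone. Exactly this minimum of 1001 bp was the width of 36.7% of the H3K4me2-alone regions, 50.9% of the H3K27ac-alone regions and 91.4% of the H3K4me3-alone regions. By construction a merged region of several marks is at least as wide as its widest part. The widest region was 82.9 kb with all 3 marks, against 26.9 kb for H3K4me2 with H3K27ac, 13.6 kb for H3K27ac alone, 8471 bp for H3K4me2 with H3K4me3 and 6425 bp for H3K4me2 alone.

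**Figure D1:**
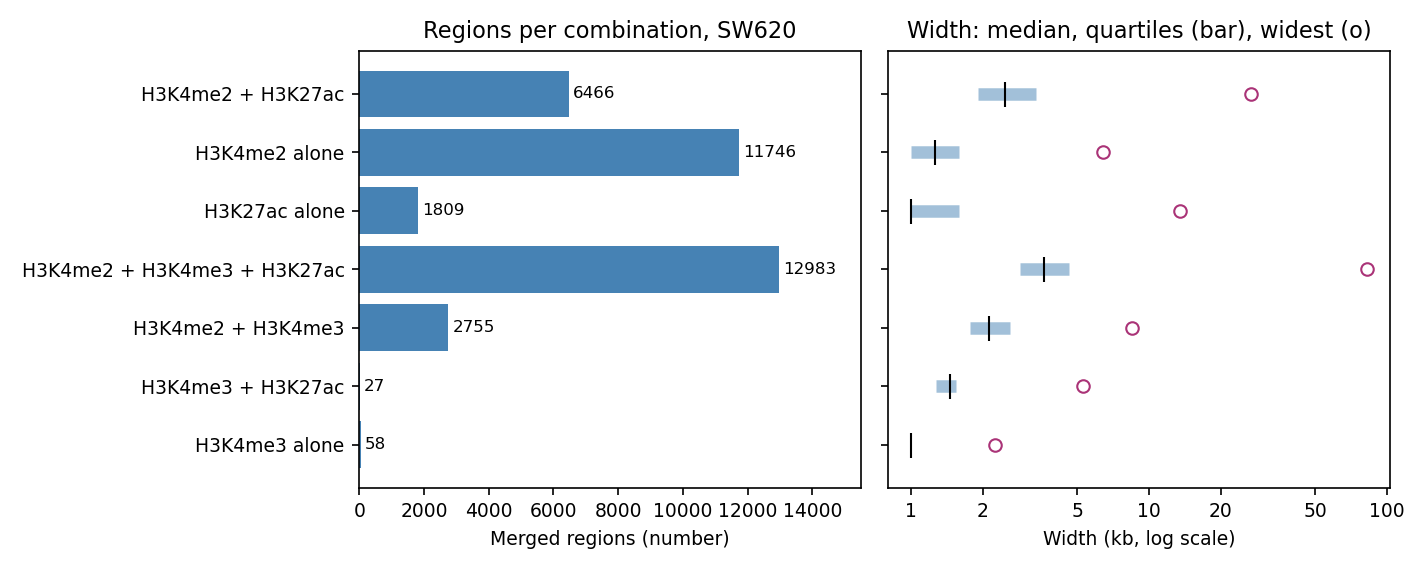
Number of merged SW620 regions for each of the 7 combinations of H3K4me2, H3K4me3 and H3K27ac (left, bars) and their widths on a log scale in kb (right, with the median as a line, the quartiles as a bar and the widest region as a circle). The 12983 regions with all 3 marks are also the wide ones, and regions of 1 mark sit near the minimum of 1001 bp.

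Inside a merged region the marks did not cover the same bases. In regions with all 3 marks, H3K4me2 covered 90.5% of the length, H3K27ac 70.2% and H3K4me3 61.9%. All 3 lay on top of each other over 50.5% of the length, and H3K4me2 alone took a further 22.2%, in 17763 stretches with a median length of 486 bp. In H3K4me2 with H3K27ac regions the order was turned, with H3K27ac over 84.9% and H3K4me2 over 75.5% of the length. Here 24.5% of the length was H3K27ac beyond the H3K4me2 call and 15.1% was H3K4me2 beyond the acetylation. In H3K4me2 with H3K4me3 regions H3K4me2 covered 94.4% and H3K4me3 60.5%.

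FOXA2 peaks were unevenly spread over the combinations. At least 1 peak lay in 6430 merged regions, 17.9% of the map. The share was 34.2% (33.1 to 35.4) of the regions with H3K4me2 and H3K27ac, 17.5% (16.8 to 18.1) of those with H3K4me2 alone and 13.9% (12.4 to 15.6) of those with H3K27ac alone. For H3K27ac alone the share was 8.84% under 1.5 kb, 20.4% at 1.5 to 2.5 kb and 33.1% at 2.5 to 4 kb. It was 20.6% of the 889 regions wider than the minimum. With the map rebuilt from the widest 50% of each mark list it was 39.4%, where H3K4me2 with H3K27ac had 35.2%. With the map rebuilt without regions of the minimum width it was 23.2%. Rebuilding moves regions between combinations, so the rebuilt values do not show the part of width. In the map of all calls the share was 12.4% (11.8 to 12.9) with all 3 marks and 10.8% (9.71 to 12.03) for H3K4me2 with H3K4me3. A peak lay in 10 of the 58 regions with H3K4me3 alone, an interval of 9.64 to 28.9%, and in 1 of the 27 with H3K4me3 and H3K27ac.

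Per length of merged region, the densities for H3K4me2 with H3K27ac and for H3K4me2 alone were close. The peaks overlapping H3K4me2 with H3K27ac regions numbered 2380, or 127 per Mb (122 to 132), and those overlapping H3K4me2-alone regions numbered 2079, or 126 per Mb (120.5 to 131). H3K27ac alone had 256 peaks, or 97.1 per Mb (85.6 to 109.8). The classes with H3K4me3 were sparser, with 301 peaks or 48.3 per Mb (43.0 to 54.1) for H3K4me2 with H3K4me3 and 1796 peaks or 33.7 per Mb (32.1 to 35.3) for all 3 marks. H3K4me3 alone had 163 per Mb (78.3 to 300.3) from its 10 peaks and H3K4me3 with H3K27ac 24.3 per Mb (0.616 to 136) from 1. FOXA2 density in H3K4me2 with H3K27ac regions was thus 3.76 times that in regions with all 3 marks (3.54 to 4.00), a ratio that changed with region width, as given with the width classes.

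A peak of 319 bp can touch a region with its edge, which raises the density of narrow regions, so peak centres were counted too. The density of centres was 126 per Mb (121 to 131) for H3K4me2 with H3K27ac, 119 per Mb (113 to 124) for H3K4me2 alone and 89.2 per Mb (78.1 to 101) for H3K27ac alone. It was 44.2 per Mb (39.1 to 49.7) for H3K4me2 with H3K4me3 and 33.4 per Mb (31.8 to 35.0) for all 3 marks. The ratio of H3K4me2 with H3K27ac to H3K4me2 alone was then 1.06, with an interval of 0.997 to 1.13. Over stretches with exactly 1 combination of marks the density was 138 per Mb (132 to 143) for H3K4me2 with H3K27ac. For H3K4me2 alone it was 68.6 per Mb (65.9 to 71.5). Those H3K4me2 stretches include parts of regions with other marks, among them 11.9 Mb of 3-mark regions at 10.0 per Mb. With the map rebuilt from the widest 50% of each mark list, log2 density relative to that map was 0.84 for H3K4me2 with H3K27ac. For H3K4me2 alone it was 0.13, but rebuilding moves regions between combinations. Neither count thus compares the same 2 sets of regions. Over the whole map of all calls there were 67.8 centres per Mb, and outside it 2.92 peaks per Mb, with the 2000 Mb genome size of the file headers.

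**Figure D2:**
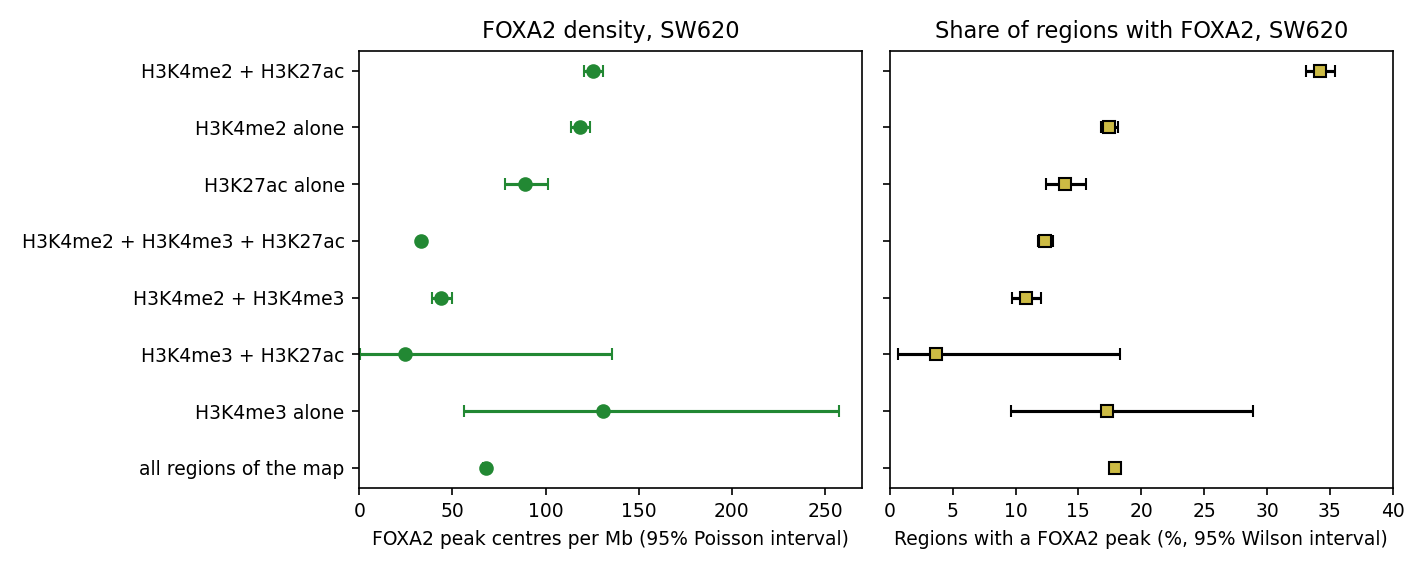
FOXA2 peak centres per Mb with 95% Poisson intervals (left) and the percentage of merged SW620 regions with at least 1 FOXA2 peak with 95% Wilson intervals (right), for the 7 combinations and the whole map. H3K4me2 with H3K27ac and H3K4me2 alone have similar densities, 126 and 119 per Mb, but shares of 34.2% and 17.5%.

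Several peaks in 1 region were rare. Of the 6430 regions with FOXA2, 6084 held 1 peak, 308 held 2, 30 held 3, 7 held 4 and 1 held 5. Over the whole map 0.965% of regions held 2 or more. The share was 2.35% for H3K4me2 with H3K27ac (152 regions) and 1.22% for all 3 marks (158 regions). It was 0.247% for H3K4me2 alone (29 regions), 0.221% for H3K27ac alone (4 regions) and 0.109% for H3K4me2 with H3K4me3 (3 regions).

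The relation of FOXA2 to width differed between combinations. In H3K4me2 with H3K27ac regions the share with a peak was higher in each wider class, with 19.8% (16.4 to 23.7) of the 454 regions under 1.5 kb and 37.7% (35.7 to 39.7) of the 2197 regions of 2.5 to 4 kb. It reached 78.3% (64.4 to 87.7) of the 46 regions of 10 kb or more. The density of centres in this combination ran the other way, 150.4 per Mb (120.4 to 185) under 1.5 kb and 89.7 per Mb (67.6 to 117) at 10 kb or more, with intervals that do not overlap.

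In regions with all 3 marks the share was high at both ends of the width range. It was 39.7% (29.6 to 50.8) of the 78 regions under 1.5 kb, 12.03% (10.5 to 13.7) of the 1638 regions of 1.5 to 2.5 kb and 7.46% (6.83 to 8.13) of the 6262 regions of 2.5 to 4 kb. It was 12.1% (11.1 to 13.2) of the 3651 regions of 4 to 6 kb, 28.3% (25.7 to 31.0) of the 1092 regions of 6 to 10 kb and 61.5% (55.4 to 67.1) of the 262 regions of 10 kb or more. The density of centres was also high at both ends. It was 303 per Mb (204 to 433) in the narrowest class, 23.1 per Mb (21.1 to 25.3) at 2.5 to 4 kb and 64.6 per Mb (57.1 to 72.9) at 10 kb or more. The wide regions also met H3K36me3 more often, 69.1% of those of 10 kb or more against 13.5% of those of 2.5 to 4 kb.

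Unacetylated H3K4me2 with H3K4me3 regions had the narrow end of this pattern. A peak lay in 28.6% (23.7 to 34.1) of the 290 regions under 1.5 kb, 9.28% (7.97 to 10.8) of the 1649 regions of 1.5 to 2.5 kb and 7.49% (5.79 to 9.64) of the 721 regions of 2.5 to 4 kb. In this combination the regions with FOXA2 were the narrower ones, with a median width of 1743.5 bp against 2165 bp without it. With all 3 marks they were the wider ones, 4356.5 bp with FOXA2 against 3557 bp without it.

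The shares of the 3 width classes under 4 kb were also weighted by the number of regions of the whole map in each class. The combinations then drew closer. The weighted share was 28.0% for H3K4me2 with H3K27ac, 21.3% for H3K4me2 alone and 21.0% for H3K27ac alone, against 19.0% for all 3 marks and 14.6% for H3K4me2 with H3K4me3. The densities of centres, weighted in the same way, were 136 per Mb for H3K4me2 with H3K27ac, 115 for H3K4me2 alone and 98.1 for H3K27ac alone, against 121 for all 3 marks and 84.1 for H3K4me2 with H3K4me3. The density ratio of H3K4me2 with H3K27ac to all 3 marks was then 1.12, in place of 3.77. The narrowest class with all 3 marks, which enters its weighted values, had 78 regions with 30 centres, or 303 per Mb. It took the weight of the 9095 map regions of that width, so the weighted density of all 3 marks rests mostly on it. The classes of 1.5 to 2.5 kb and 2.5 to 4 kb had 56.2 and 23.1 per Mb, and regions of 4 kb or more were left out. The value of 1.12 is thus not a measure of how much of the 3.77 goes with width.

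Within width classes this density ratio ran from below to well above 1. It was 0.496 (0.324 to 0.779) under 1.5 kb, 2.35 (2.01 to 2.77) at 1.5 to 2.5 kb and 5.49 (4.90 to 6.16) at 2.5 to 4 kb. It was 4.63 (4.04 to 5.29) at 4 to 6 kb, 2.44 (2.04 to 2.92) at 6 to 10 kb and 1.39 (1.02 to 1.86) at 10 kb or more. FOXA2 was thus denser with H3K4me2 and H3K27ac than with all 3 marks in the 5 classes from 1.5 kb up, and sparser in the narrowest class.

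**Figure D3:**
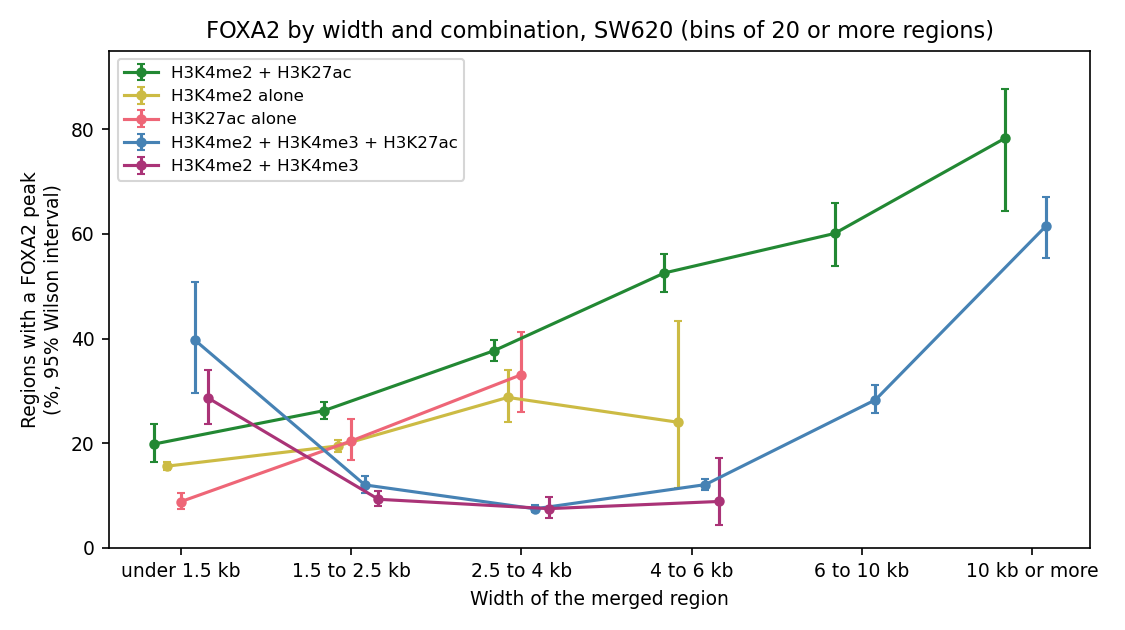
Percentage of merged SW620 regions with a FOXA2 peak (y axis, 95% Wilson intervals) in 6 classes of region width (x axis) for 5 combinations, for classes of 20 or more regions. The share climbs from class to class for H3K4me2 with H3K27ac, from 19.8% to 78.3%, and is lowest at 2.5 to 4 kb for all 3 marks, 7.46%.

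The position of FOXA2 within regions was read from stretches of exactly 1 combination of marks. Inside H3K4me2 with H3K27ac regions, 86.0% of the 2360 peak centres lay where both marks overlapped, which was 60.4% of the length. The density there was 179 per Mb (171 to 187), against 59.3 per Mb (50.7 to 69.0) where H3K4me2 reached beyond the acetylation and 35.2 per Mb (30.0 to 41.1) where H3K27ac reached beyond H3K4me2. FOXA2 in this combination was thus densest on the bases carrying both marks.

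Inside regions with all 3 marks the densest stretches were those with H3K4me2 and H3K27ac but no H3K4me3. They had 62.3 centres per Mb (56.3 to 68.8) over 6.26 Mb, against 41.2 per Mb (38.8 to 43.7) where all 3 marks overlapped. Stretches of H3K4me2 alone within these regions had 10.0 per Mb (8.32 to 12.01) over 11.9 Mb, far below the 119 per Mb of free-standing H3K4me2-alone regions. H3K4me2-only stretches inside and outside 3-mark regions thus differed in FOXA2 density, and where the inner stretches lie in their region was not measured. All bases of 3-mark regions off H3K4me3 had 26.8 centres per Mb (24.6 to 29.1) and bases on H3K4me3 had 37.4 per Mb (35.4 to 39.6), a ratio of 0.716 (0.646 to 0.793).

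The balance between bases off and on H3K4me3 depended on the width of the 3-mark region. In regions of 2.5 to 4 kb the density was 10.4 per Mb (8.14 to 13.1) off H3K4me3 and 29.6 per Mb (26.7 to 32.6) on it. In regions of 6 to 10 kb it was 42.1 per Mb (35.6 to 49.4) off and 45.9 per Mb (39.8 to 52.6) on. In regions of 10 kb or more it was 68.8 per Mb (58.6 to 80.3) off and 59.0 per Mb (48.2 to 71.6) on. The intervals overlap in these wider classes. H3K4me3 covered 66.4% of the length at 2.5 to 4 kb and 42.7% at 10 kb or more.

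**Figure D4:**
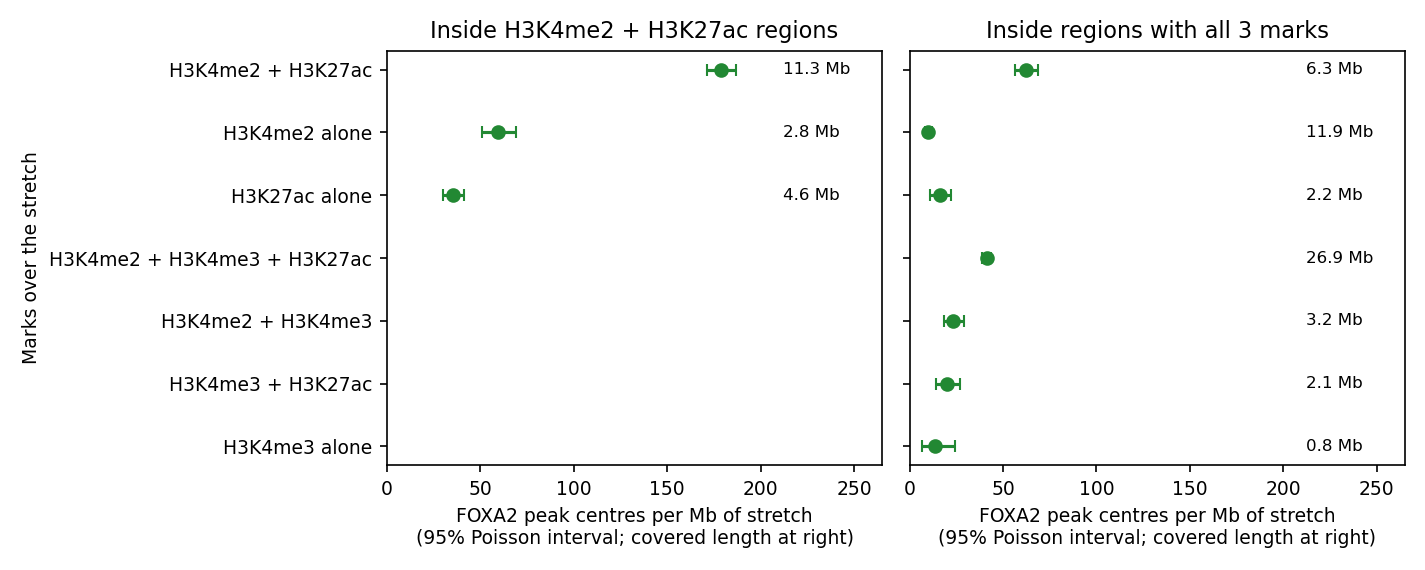
FOXA2 peak centres per Mb (x axis, 95% Poisson intervals) over stretches with exactly 1 combination of marks (rows), inside H3K4me2 with H3K27ac regions (left) and inside regions with all 3 marks (right), with the covered length in Mb at the right of each panel. Stretches with H3K4me2 and H3K27ac but no H3K4me3 are densest in both, at 179 and 62.3 per Mb.

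FOXA2 lay toward the middle of the regions. The inner 50% of each region's length held 81.4% (79.8 to 83.0) of the centres in H3K4me2 with H3K27ac regions, 69.4% (67.3 to 71.4) in H3K4me2-alone regions and 67.2% (61.0 to 72.9) in H3K27ac-alone regions. With all 3 marks it held 70.3% (68.1 to 72.3), and for H3K4me2 with H3K4me3 72.7% (67.2 to 77.7). Per the file headers the caller centred regions on the likely nucleosome-free stretch, and its part in this result was not tested. For H3K4me2-alone regions of the minimum width, the inner share was 59.0% (54.7 to 63.1) of 529 centres, and for wider ones 73.2% (70.8 to 75.4) of 1432. The wider H3K4me2-alone regions also held a peak more often, 19.5% (18.6 to 20.4) against 13.9% (12.9 to 15.0).

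H3K36me3 met the combinations at very different rates. It overlapped 4665 merged regions, 13.0% of the map. The share was 28.8% (26.8 to 30.9) for H3K27ac alone, 22.2% (21.5 to 22.9) for all 3 marks and 14.0% (13.2 to 14.9) for H3K4me2 with H3K27ac. It was 2.86% (2.57 to 3.18) for H3K4me2 alone and 0.762% (0.499 to 1.16) for H3K4me2 with H3K4me3. Of the 58 regions with H3K4me3 alone and the 27 with H3K4me3 and H3K27ac none was overlapped, with upper bounds of 6.21% and 12.5%. The 3 larger acetylated combinations thus met the gene-body mark more often than the 2 larger unacetylated ones. The order among combinations depended on the rule. With H3K36me3 over at least 50% of the region, the same regions had shares of 24.8% for H3K27ac alone, 2.37% for all 3 marks and 6.37% for H3K4me2 with H3K27ac. H3K4me2 alone then had 1.75% and H3K4me2 with H3K4me3 0.181%. With the map rebuilt from the widest 50% of each mark list the shares were 16.1%, 35.02%, 19.6%, 5.84% and 9.31% in the same order. There the combinations hold other regions, since a region that lost a narrow call changes its combination.

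The form of the overlap also differed. Of the H3K27ac-alone regions, 343 or 19.0% lay wholly inside H3K36me3, and H3K36me3 covered 23.1% of their length. Wholly covered regions were 1.64% of the map, 2.01% of the H3K4me2 with H3K27ac regions, 0.894% of the H3K4me2-alone regions and 0.0693% (9 regions) of those with all 3 marks. In regions with all 3 marks H3K36me3 covered 8.44% of the length. From the side of H3K36me3, 4971 of its 45466 regions (10.9%, 10.6 to 11.2) touched the map, and 5.16% of its length lay on it. Those that touched it had a median width of 3119 bp, against 1627 bp for the others, and a wider region touches the map more often by its length alone.

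The flanks were examined over 10 kb on either side. For regions with all 3 marks, H3K36me3 was called on 1 flank only in 43.8% (43.0 to 44.7), on both in 15.3% (14.7 to 15.9) and on neither in 40.9% (40.03 to 41.7). H3K4me2 with H3K27ac regions had it on 1 flank in 16.6% (15.7 to 17.5), on both in 16.0% (15.1 to 16.9) and on neither in 67.5% (66.3 to 68.6). H3K27ac-alone regions had it on both flanks in 32.6% (30.5 to 34.8) and on 1 flank in 11.1% (9.74 to 12.6).

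Unacetylated regions were seldom flanked by H3K36me3. Neither flank carried it in 88.5% (87.2 to 89.6) of the H3K4me2 with H3K4me3 regions and 84.9% (84.2 to 85.5) of the H3K4me2-alone regions. One-sided flanks made up 87.1% of all flanked regions for H3K4me2 with H3K4me3, 74.2% for all 3 marks and 25.4% for H3K27ac alone.

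**Figure D5:**
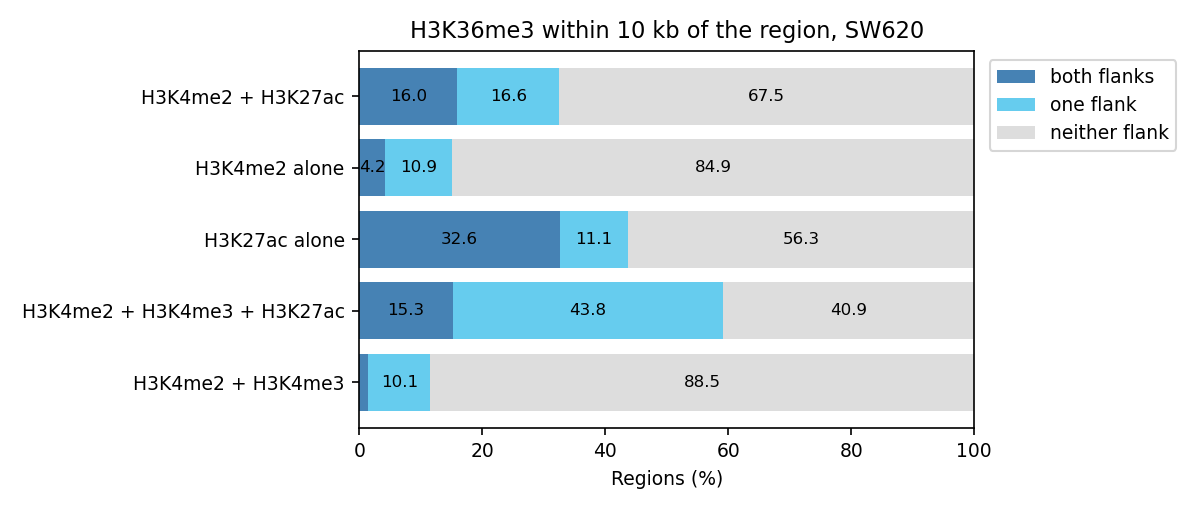
Percentage of merged SW620 regions with an H3K36me3 region within 10 kb on both flanks, on one flank or on neither, for the 5 larger combinations. One-sided flanks are most frequent with all 3 marks (43.8%) and two-sided flanks for H3K27ac alone (32.6%).

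With H3K36me3 and FOXA2 added, 23 of the 28 possible combinations had a member. The commonest were H3K4me2 alone with neither, 9405 regions over 13.0 Mb with a median width of 1255 bp, and all 3 marks with neither, 8907 regions over 31.8 Mb with a median of 3339 bp. Next came H3K4me2 with H3K27ac and neither, 3626 regions over 9.17 Mb with a median of 2288 bp. H3K4me2 with H3K4me3 and neither had 2436 regions over 5.58 Mb with a median of 2159 bp.

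Among regions with FOXA2 and no H3K36me3, 2005 had H3K4me2 alone (2.998 Mb, median 1279 bp) and 1933 had H3K4me2 with H3K27ac (6.18 Mb, median 2769 bp). All 3 marks followed with 1196 (5.33 Mb, median 3867 bp), then H3K4me2 with H3K4me3 with 298 (0.588 Mb, median 1743.5 bp) and H3K27ac alone with 223 (0.426 Mb, median 1551 bp). H3K4me3 alone had 10 such regions and H3K4me3 with H3K27ac 1. With and without H3K36me3, FOXA2 was held by 2213 regions of H3K4me2 with H3K27ac, 2050 of H3K4me2 alone and 1606 of all 3 marks, although the last was the most numerous in the map.

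Regions with both H3K36me3 and FOXA2 numbered 410 for all 3 marks and 280 for H3K4me2 with H3K27ac. The 410 were the widest group of the map, with a median of 6748.5 bp over 3.92 Mb and 512 peaks. The 280 had a median of 3956 bp over 1.41 Mb and 310 peaks. There were 45 for H3K4me2 alone (median 1509 bp) and 29 for H3K27ac alone (median 1807 bp). None was found for the 3 other combinations.

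H3K36me3 without FOXA2 was found in 2470 regions of all 3 marks (12.2 Mb, median 4477 bp) and 627 of H3K4me2 with H3K27ac (2.01 Mb, median 2695 bp). For H3K27ac alone there were 492 (0.678 Mb, median 1001 bp), for H3K4me2 alone 291 (0.414 Mb, median 1257 bp) and for H3K4me2 with H3K4me3 21 (median 2739 bp). The groups with neither were completed by 1065 regions of H3K27ac alone (1.47 Mb), 48 of H3K4me3 alone and 26 of H3K4me3 with H3K27ac.

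FOXA2 was sparser with H3K36me3 in H3K27ac-alone and in H3K4me2 with H3K27ac regions. In H3K27ac-alone regions the density of centres was 36.5 per Mb (24.0 to 53.1) with H3K36me3 and 109.8 per Mb (95.3 to 126) without it. The share of regions with a peak was 5.57% (3.90 to 7.88) with it and 17.3% (15.3 to 19.5) without it. Median widths here were 1001 bp with it and 1251 bp without it, and wider H3K27ac-alone regions held a peak more often. What width contributes to this difference was not tested. In H3K4me2 with H3K27ac regions the densities were 89.2 per Mb (79.5 to 99.8) with H3K36me3 and 134 per Mb (128 to 139.8) without it, with median widths of 3001 bp with it and 2400 bp without it. In H3K4me2-alone regions they were 90.6 per Mb (65.9 to 122) with it and 119.5 per Mb (114 to 125) without it, with overlapping intervals. With all 3 marks the densities were 31.6 per Mb (28.9 to 34.5) with it and 34.1 per Mb (32.3 to 36.1) without it, again with overlapping intervals.

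The distance to the nearest other region with all 3 marks also went with FOXA2. The median distance was 32.0 kb for H3K4me2 with H3K27ac, 36.8 kb for H3K27ac alone and 47.4 kb for H3K4me2 alone, and 12.1% of all regions had such a region within 5 kb. Of the H3K4me2 with H3K27ac regions, a peak lay in 27.9% (25.1 to 30.9) of the 928 within 5 kb, 30.9% (28.6 to 33.3) of the 1518 at 5 to 20 kb, 35.5% (33.7 to 37.3) of the 2705 at 20 to 100 kb and 39.9% (37.3 to 42.6) of the 1315 farther away. For H3K4me2 alone the shares were 11.1% (9.49 to 12.9) of 1290, 14.3% (12.9 to 15.8) of 2193, 18.2% (17.1 to 19.4) of 4596 and 20.6% (19.3 to 22.0) of 3667, in the same order of distance.

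For H3K27ac alone the spread was wider. A peak lay in 4.94% (2.91 to 8.27) of the 263 regions within 5 kb, 9.28% (6.78 to 12.6) of 388, 12.2% (9.96 to 14.7) of 716 and 26.2% (22.4 to 30.5) of the 442 regions beyond 100 kb. The median widths of the nearest and the farthest class were 1001 and 1257 bp in this combination, 1263 and 1253 bp for H3K4me2 alone, and 2583 and 2323 bp for H3K4me2 with H3K27ac. The share with FOXA2 was thus higher farther from regions with all 3 marks in these 3 combinations, while the farther regions were wider for H3K27ac alone and not for the other two.

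Chromosomes differed in the mix of combinations. Over 23 chromosomes, the share of regions with all 3 marks lay between 27.2% on chromosome 21 and 47.3% on chromosome 19. The share of H3K4me2 with H3K27ac lay between 10.2% on chromosome 19 and 24.2% on chromosome 21. FOXA2 was found in 9.31% (8.06 to 10.7) of the regions on chromosome 19 and 25.01% (23.02 to 27.1) of those on chromosome 10, with a median over chromosomes of 17.2%. The ratio of FOXA2 density in H3K4me2 with H3K27ac to that with all 3 marks was above 1 on 23 of 23 chromosomes, from 2.38 on chromosome 18 to 4.67 on chromosome 16. H3K36me3 overlapped 4.59% of the regions on chromosome 18 and 21.7% on chromosome 17.

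Seen from the 12372 FOXA2 peaks, 6823 (55.1%) overlapped the map. H3K4me2 with H3K27ac held 19.2% (18.6 to 19.9) of all peaks, H3K4me2 alone 16.8% (16.2 to 17.5), all 3 marks 14.5% (13.9 to 15.1), H3K4me2 with H3K4me3 2.43% (2.18 to 2.72) and H3K27ac alone 2.07% (1.83 to 2.34). The other 5549 peaks (44.9%) overlapped none of the 3 marks, and 188 of these (3.39%, 2.94 to 3.90) lay on H3K36me3. Their median distance to the map was 25.8 kb, with 949 (17.1%) within 5 kb and 1171 (21.1%) more than 100 kb away.

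The mix changed along the deposited list, cut into 4 parts of 3093 peaks. What decides the order of the list is unknown. In the first part, 26.6% (25.1 to 28.2) of the peaks lay on H3K4me2 with H3K27ac, and in the following parts 20.9%, 17.1% and 12.4% (11.3 to 13.6). Peaks off the map were 32.7% (31.1 to 34.4), 41.2%, 45.3% and 60.2% (58.5 to 61.9) of the same parts. The share on regions with all 3 marks was steadier, 15.7%, 15.0%, 15.6% and 11.8%.

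Peaks off the map were partly crowded into a few places. In windows of 500 kb, 15 held 10 or more such peaks, 241 in all or 4.34% of those off the map. The densest was chromosome 4 from 49 to 49.5 Mb with 32 peaks, none of them on the map. On chromosome 21 the windows from 9.5 to 10 Mb and from 10 to 10.5 Mb held 20 and 21, and chromosome X from 61.5 to 62 Mb held 21.

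Individual regions show the forms behind these numbers. Coordinates are hg19, counted from 1. The widest region of the map, chr2:240140678-240223571, was 82.9 kb long and joined 4 H3K4me2, 10 H3K4me3 and 2 H3K27ac regions. H3K27ac covered 96.6% of it, H3K4me2 95.9%, H3K4me3 54.0% and H3K36me3 48.4%. It also held the most FOXA2 peaks, 5, spread over 48.2 kb, of which 2 lay on H3K4me3 and 3 on H3K36me3.

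The next widest, chr9:97762842-97831849, was 69.0 kb long, with 9 H3K4me3 regions over 34.4% of it and H3K36me3 over 70.9%. Of its 4 FOXA2 peaks, 2 lay on H3K4me3 and 3 on H3K36me3. At chr7:523218-564486, 41.3 kb long, 3 of 4 peaks lay on H3K4me3. H3K27ac covered 94.7% of the chromosome 9 region and 97.0% of the chromosome 7 region.

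In 2 further regions with 4 peaks, most peaks lay off H3K4me3, which also covered only the smaller part of the length. At chr7:130576495-130613807, 37.3 kb long with H3K4me3 over 23.2%, none of the 4 peaks lay on H3K4me3 and all 4 lay on both H3K4me2 and H3K27ac. At chr16:50488543-50514143, 25.6 kb long, H3K27ac covered 100% and H3K4me3 5.88%, and 1 of the 4 peaks lay on H3K4me3. In the chromosome 7 region 1 of the 4 peaks lay on H3K36me3, and the chromosome 16 region had no H3K36me3.

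Among H3K4me2 with H3K27ac regions the widest were chr12:76095057-76121948, 26.9 kb, and chr14:69411578-69438300, 26.7 kb. The chromosome 12 region was acetylated over 100% of its length with H3K4me2 over 25.02%, no H3K36me3 and 2 FOXA2 peaks, at 76097963 to 76098281 and 76118665 to 76118983. The chromosome 14 region had H3K4me2 over 98.2%, H3K27ac over 93.1%, H3K36me3 over 60.2% and 1 FOXA2 peak. The most FOXA2 peaks of this combination, 4 within 6.82 kb, lay in chr7:142502472-142513005, 10.5 kb long, where all 4 were on H3K4me2 and 3 on H3K27ac.

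H3K27ac alone also reached long stretches. The widest, chr12:76023509-76037072, was 13.6 kb with 1 FOXA2 peak and lay at lower coordinates than the wide chromosome 12 region above. On chromosome 15, chr15:70039365-70045795 was 6431 bp long with no peak, and chr15:70073354-70078822 was 5469 bp long with 2 peaks. These 3 had no H3K36me3, while 521 regions of the combination did, the widest of them 7735 bp long and not among those named.

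H3K4me2 stood alone most widely at chr2:234327225-234333649, 6425 bp with 1 FOXA2 peak, and chr7:100813070-100818678, 5609 bp with none. At most 2 peaks lay in 1 such region, in 29 regions, of which chr22:39647551-39651649, 4099 bp long, was the widest outside chromosome 8. The widest unacetylated H3K4me2 with H3K4me3 regions were chr20:25839124-25847594, 8471 bp, and chr12:57630581-57638424, 7844 bp, both without FOXA2. At chr6:170604351-170608119, 3769 bp long, 1 of its 2 peaks lay on H3K4me3.

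The combinations without H3K4me2 gave small regions. H3K4me3 with H3K27ac was widest at chr7:55721116-55726372, 5257 bp, and chr3:112383535-112385339, 1805 bp, and its 1 peak lay in chr1:66946322-66947351. H3K4me3 alone was widest at chr1:120837838-120840096, 2259 bp, and chr4:52160-54224, 2065 bp, both without FOXA2. The widest of its 10 regions with a peak was chr9:67790378-67791630, 1253 bp.

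The same construction in SW480 gave 32646 merged regions over 93.5 Mb. H3K4me2 stood alone in 32.8% (32.3 to 33.3) of the SW620 map and 22.6% (22.2 to 23.1) of the SW480 map. All 3 marks met in 36.2% (35.7 to 36.7) of the SW620 map and 47.4% (46.9 to 47.9) of the SW480 map. H3K4me2 with H3K27ac was close, with 18.0% (17.6 to 18.4) for SW620 and 17.5% (17.1 to 17.9) for SW480. Of the H3K4me3 tags, 52.0% lay in regions in SW620, against 73.0% in SW480, and of the H3K27ac tags 27.5% in SW620, against 58.5% in SW480. The part of this in the shares was not tested.

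Most 3-mark regions of SW620 overlapped a 3-mark region of SW480, 93.9% (93.5 to 94.3). Wide regions overlap others more often by their length alone, and the SW480 classes differ in extent. There all 3 marks covered 59.6 Mb and H3K27ac alone 2.96 Mb, so the shares below do not rank how far combinations were kept. Of the H3K4me2 with H3K27ac regions, 34.0% (32.8 to 35.2) overlapped the same combination in SW480 and 56.0% (54.8 to 57.2) overlapped any region of the SW480 map. For H3K4me2 alone these shares were 20.4% (19.7 to 21.2) and 47.4% (46.5 to 48.3), and for H3K27ac alone 7.08% (5.98 to 8.35) and 22.0% (20.2 to 24.0). Of the unacetylated H3K4me2 with H3K4me3 regions, 90.9% (89.8 to 91.9) overlapped the SW480 map but 21.2% (19.7 to 22.7) the same combination.

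FOXA2 was also set side by side in both lines. The FOXA2 list held 12372 peaks with 2.25% of tags in SW620, against 5207 peaks with 0.59% of tags in SW480. The ratio of FOXA2 centres per Mb in H3K4me2 with H3K27ac to that in all 3 marks was 3.77 (3.54 to 4.01) for SW620, against 2.10 (1.57 to 2.79) for SW480, where it rests on 81 and 133 centres. In H3K4me2-alone regions the density was 119 per Mb in SW620 and 6.96 per Mb (5.38 to 8.85) in SW480. In SW480 the densest of the larger combinations was H3K27ac alone, with 13.5 per Mb (9.67 to 18.4) from 40 centres. The SW480 map had 353 overlaps with its 5207 peaks, while 6823 of the 12372 SW620 peaks overlapped the SW620 map. Density over the whole map was 3.67 centres per Mb (3.29 to 4.08) in SW480 and 67.8 in SW620. The SW480 values thus rest on a small part of its list. Peak size was 318 bp in SW620 and 126 bp in SW480. Density outside the map was given for SW620 only, so how far the SW480 values stand above their background was not measured. These differences have no replicate check.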

How the data were processed

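ChIP-seq of SW620 (1 library per antibody) was used as the 5 deposited region lists, with groups read from the titles of the samples. Per the file headers the authors used HOMER findPeaks against the line's input: histone style, size 1000 bp, minimum 4-fold over input and over the local background, and for FOXA2 factor style with 2-fold for both, all at a false discovery rate of 0.001. Positions are on hg19, by the submitters' processing notes. An aligner or HOMER version was not given in the sources used here. The deposited score column holds 1 in every row, so the values used were the deposited start and end positions. Total tags were read from the file headers.

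Regions were merged and overlapped (1 bp) with numpy 2.4.6, pandas 2.3.3 and Python 3.11.15, and checked against bedtools 2.31.1. Intervals came from scipy 1.17.1 and figures from matplotlib 3.10.9. The functions were tested on 2000 simulated regions and recovered 100% of their combinations and FOXA2 counts. PCR reads without molecular identifiers are not independent, and neighbouring regions are not either, so intervals and upper bounds cover counting error only.

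Named regions were, per combination and outside chromosome 8, the 2 widest and the one with the most FOXA2 peaks, plus the 5 with the most peaks of all. Members and lists were chosen with earlier results of these data known. Width classes, flanks of 10 kb, distance classes and windows of 500 kb were chosen with the data or those results in view. The alternatives added after seeing the data are given in the closing section. Gene names were not used, because the available gene annotation has another build. The inputs were not analysed here.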

Additional observations from a re-analysis of the deposited data

How the results depend on the processing

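With 1 library per antibody, no replicate could be left out. No paired analysis was possible because each group is 1 library. The density ratio of H3K4me2 with H3K27ac to all 3 marks depended on region width. In alternatives added after seeing the data it was 0.496 under 1.5 kb, which reverses it. In the wider classes it was, in order, 2.35, 5.49, 4.63, 2.44 and 1.39. Weighted by region number over the 3 classes under 4 kb it was 1.12, also added, a value resting mostly on 78 narrow 3-mark regions. The other alternatives gave 3.14 with the widest 50% of each mark list, 4.40 with the first-listed 50% of FOXA2 peaks, 3.34 over base-level states and 4.15 without regions of the minimum width, also added. Trimming the mark lists also moved regions between combinations. The cause of these changes was not tested. The widest 50% of the lists gave 18356 merged regions and 3414 with FOXA2, and the first-listed 50% of FOXA2 peaks gave 3756 regions with FOXA2; both use fewer regions by construction. With H3K36me3 over at least 50% of a region, 1379 regions counted in place of 4665.

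Of 237 values per combination recomputed, 175 stayed within their counting interval or within 1.5 times the count, 58 moved and 4 changed sign. The sign changes concerned log2 FOXA2 density relative to the whole map. For H3K4me3 it was -1.13 with the widest 50% and -1.43 over base-level states. For H3K27ac it was -0.57 over base-level states, which count the edges of wider regions too, and for H3K4me3 with H3K27ac 0.0478 without regions of the minimum width. The filter at 1 kb removed nothing, since no region was narrower. Leaving out the 15 windows dense in unmarked FOXA2 peaks, also added, gave a ratio of 3.77. What the depth of the H3K4me3 library contributes to the classes without H3K4me3 was not tested.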
